A study of Homo sapiens with 2 samples.

Results

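The neuron navigator genes NAV1, NAV2 and NAV3 were described in a list of SF3B1 binding intervals. Their members were the intervals that the deposited list gives under one of these 3 genes and whose midpoint lies in that gene's RefSeq span. There were 11 such intervals among 1406 distinct ones, 9 in NAV2, 2 in NAV3 and 0 in NAV1. The family was chosen by the number of intervals, since NAV2 held more than any other protein-coding gene, so these numbers are a description and were not tested.

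HITS-CLIP was used, an assay that crosslinks proteins to RNA with ultraviolet light in intact cells, precipitates one protein and sequences the RNA fragments held by it as tags. Both libraries were biological duplicates (replicates 1 and 2) of 1 group: MDA-231-LM2, human breast cancer cells derived from MDA-MB-231 by selection for metastasis to the lung, grown without any stated treatment or genetic change. The precipitated protein is SF3B1 by the title and the antibody label but SNRBP2 by the extract protocol, and it is called SF3B1 here. Tags of both libraries were pooled before the deposited list was called, and no control or input sample was analysed here. Values therefore carry no replicate error, the depth of each library is unknown, and contact with SF3B1 was not separated from the abundance of the transcript.

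Neuron navigators are large cytoplasmic proteins that bind microtubules and track their growing plus ends. They are the vertebrate relatives of the nematode guidance protein UNC-53 and are known for their part in neurite outgrowth, axon guidance and cell migration. All have an ATPase domain near the carboxyl terminus, and NAV2 and NAV3, unlike NAV1, also have an amino-terminal calponin homology domain in their long isoforms. NAV2 is also known as a gene induced by retinoic acid in neuroblastoma cells. SF3B1 belongs to the SF3b complex, with which the U2 snRNP recognises the branch point close to the 3′ end of introns.

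NAV2 spans 776366 nt of chromosome 11, chr11:19345236-20121601 in hg38, and is read from the plus strand. RefSeq promoters mark 3 transcription starts for it, at 19345236, 19712837 and 20022556. The first coincides with the start of the span, and the others lie 367.601 and 677.32 kb further on. These starts divide the gene into the pieces by which its intervals are described below, so the 250 bases upstream of each are shown (RefSeq, GRCh38.p14, plus strand). Capitals mark matches on either strand to the letters GGGCGG (a GC box) or CCAAT; no match to TATAAA was found in these windows.
NAV2 start 1, chr11:19344986-19345235: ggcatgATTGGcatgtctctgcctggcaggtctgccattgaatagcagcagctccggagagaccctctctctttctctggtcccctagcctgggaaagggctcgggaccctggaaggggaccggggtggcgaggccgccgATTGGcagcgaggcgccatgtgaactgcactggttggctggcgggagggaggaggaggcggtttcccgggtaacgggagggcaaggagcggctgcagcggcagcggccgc
NAV2 start 2, chr11:19712587-19712836: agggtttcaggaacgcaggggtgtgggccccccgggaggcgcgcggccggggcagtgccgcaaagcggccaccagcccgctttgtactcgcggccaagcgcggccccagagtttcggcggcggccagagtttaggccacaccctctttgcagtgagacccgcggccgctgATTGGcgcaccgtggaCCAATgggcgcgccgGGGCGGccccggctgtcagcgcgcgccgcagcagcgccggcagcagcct
NAV2 start 3, chr11:20022306-20022555: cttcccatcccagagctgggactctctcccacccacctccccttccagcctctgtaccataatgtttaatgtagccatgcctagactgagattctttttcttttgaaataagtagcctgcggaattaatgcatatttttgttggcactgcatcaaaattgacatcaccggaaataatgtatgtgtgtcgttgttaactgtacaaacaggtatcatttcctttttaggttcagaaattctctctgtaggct

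The first and second windows were rich in G and C and the third was not. G and C made up 66.8%, 74% and 41.6% of the bases, against a median of 58% over 35116 such windows in the RefSeq table. The dinucleotide CG occurred 16, 32 and 3 times, against a median of 11. CCAAT was matched 2 times in each of the first and second windows, and GGGCGG 1 time in the second. Windows with at least 1 match made up 32.0% of all windows for CCAAT, 42.6% for GGGCGG and 10.7% for TATAAA. A match is a description of the letters only. In NAV3 the windows at both listed starts (77830894 and 78036614 on chromosome 12) held 38% and 49.6% G and C. Those of NAV1 (201648666 and 201739900 on chromosome 1) held 68% and 64.4%.

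All 9 intervals of NAV2 lay on the plus strand, the strand of the gene, and all lay beyond its second start. Their heights, the number of pooled tags at the top of the peak as the authors deposited it, ran from 5 to 13 tags with a median of 6. The first interval, chr11:19726207-19726247, had 6 tags and lay 13.4 kb beyond the second start. The second, chr11:19803487-19803529, and the third, chr11:19946374-19946416, had 5 tags each, the lowest heights in the gene. These 3 intervals lay far apart, with 77.3 and 142.9 kb between neighbouring midpoints.

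The other 6 intervals followed within the last 10% of the gene. The fourth, chr11:20054035-20054077, had 7 tags and lay 31.5 kb beyond the third start and 107.7 kb from its upstream neighbour. Next came chr11:20060060-20060137 with 6 tags, which at 78 nt was the widest interval of the gene. The tallest, chr11:20075747-20075807, had 13 tags and a width of 61 nt. Only 568 nt separated its midpoint from that of chr11:20076324-20076366, which had 6 tags. The 2 last intervals were chr11:20082948-20082995 with 7 tags and chr11:20112594-20112636 with 11 tags, the latter 8.99 kb before the end of the gene. From the fourth midpoint to the ninth the stretch was 58.6 kb, or 7.54% of the span. The heights beyond the third start, 6 to 13 tags, overlapped those before it, 5 to 6 tags, at a value of 6. The heights of the 6 downstream intervals summed to 50, of 66 over all 9. These are sums of peak tops, and the number of tags in an interval or in the gene is not known.

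**Figure D1:**
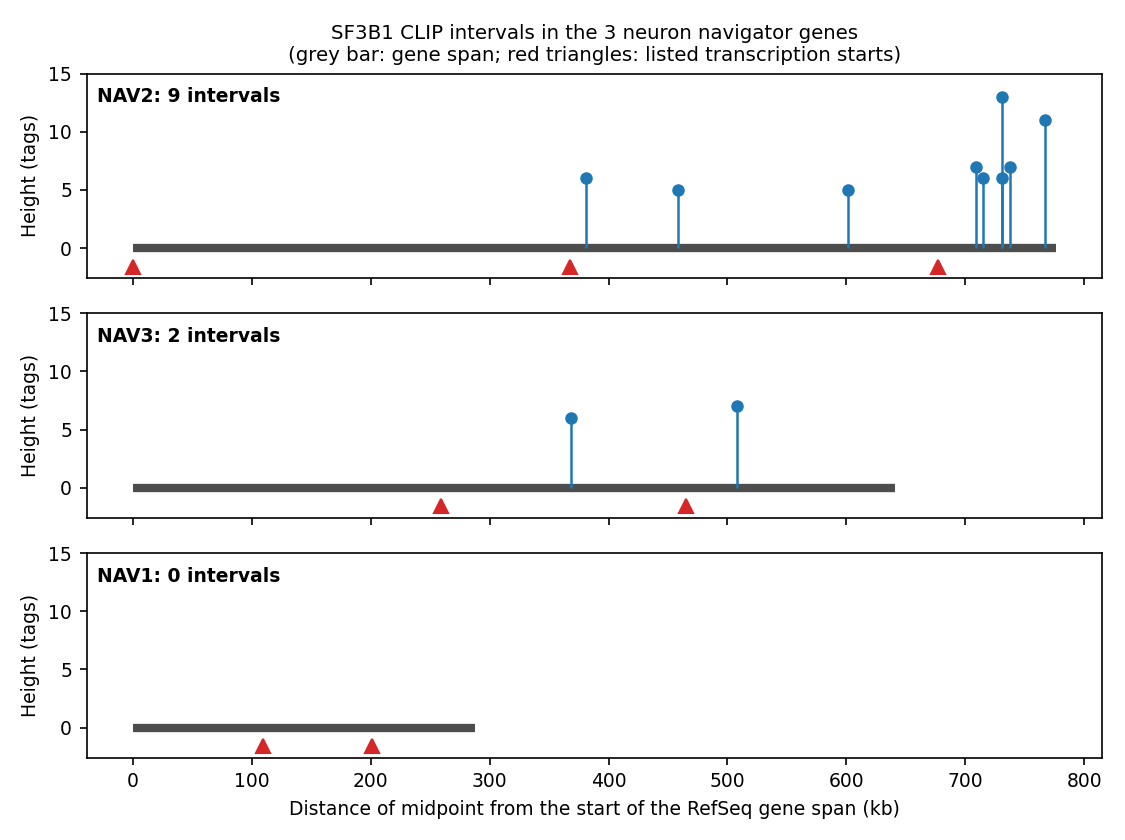
Height of each SF3B1 CLIP interval in pooled tags (vertical axis) against the distance of its midpoint from the start of the RefSeq gene span in kb (horizontal axis), for NAV2, NAV3 and NAV1; grey bars are the gene spans and red triangles the listed transcription starts. NAV2 shows no interval before its second start and 6 of its 9 intervals beyond the third, NAV3 shows 2 intervals, and NAV1 none.

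The NAV2 intervals were set against uniform placement over the span. The piece from the first to the second start makes up 47.3% of the length and would have held 4.26 of 9 intervals; it held 0 (0%, exact Clopper-Pearson 95% interval 0 to 33.6). Between the second and the third start, 39.9% of the length, 3 intervals were observed against 3.59. The piece beyond the third start, 12.8% of the length, held 6 against 1.15, 5.23 times as many (66.7%, exact interval 29.9 to 92.5). With the span cut into 5 equal parts, the counts from 5′ to 3′ were 0, 0, 2, 1 and 6, against 1.8 in each. The cut at the listed starts, unlike that into equal parts, was not planned beforehand, so its counts are a description only. These intervals of shares treat the 9 positions as independent and cover counting error only.

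The midpoints had a median position at 92.1% of the span. Their cumulative share departed most from the uniform line at 91.3% of the span, just before the fourth interval, by 58.0 percentage points. Of the 8 gaps between neighbouring midpoints, 6 were shorter than the 77.6 kb that even spacing gives, and the median gap was 22.7 kb. One of the 6, at 77.3 kb, was only just shorter. Points placed at random along a span are not evenly spaced and also leave many short gaps, so this count alone shows no departure from uniform placement. When the span was counted only from the second start on, a choice made after the positions had been seen, the departure was 50.1 points. In that shorter span the last piece, 24.2% of the length, held 6 of 9 intervals against 2.18, and the piece before it 3 against 6.82. No p-value was computed, because the intervals of 1 gene in 1 pooled list are not replicates. Which of the starts these cells use was not measured, and intervals were not assigned to exons or introns.

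**Figure D2:**
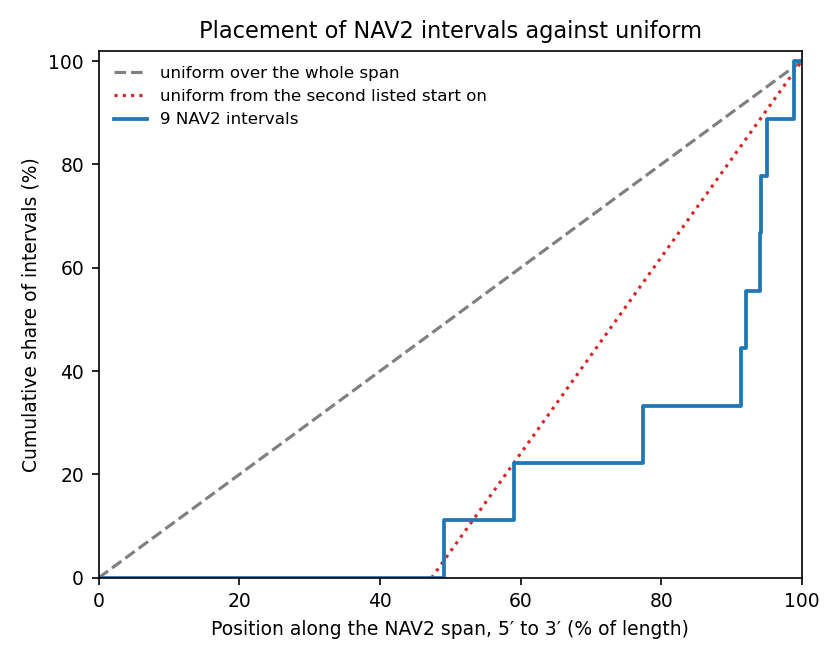
Cumulative share of the 9 NAV2 intervals in percent (vertical axis) against position along the gene span from 5′ to 3′ in percent of its length (horizontal axis), with the lines expected for uniform placement over the whole span (dashed) and from the second listed start on (dotted). The stepped line stays at 0 until 49.1% of the span and climbs steeply from 91.3%.

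Intervals of other long genes also lay more often toward the 3′ end. On the 3′ side of the middle of the span NAV2 held 8 of its 9 intervals (88.9%, exact 95% interval 51.8 to 99.7). The background for this count was 74.8%, the share of 389 intervals in 299 other protein-coding genes of 100 kb or more. Of those 389, 28% lay in a last part of the span as long, relative to the gene, as that beyond the third NAV2 start, against 6 of 9 in NAV2. In a first part as long as that before the second NAV2 start the background was 24.2%, against 0 of 9. The median position in these other genes was 74.8% of the span. The difference between NAV2 and these genes was not tested.

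Other genes with distant starts were examined in the same way, after the NAV2 pattern had been seen. In 21 other protein-coding genes with an interval and at least 100 kb between their first and second listed starts, 8 of 34 intervals lay between these starts, against 16.5 under uniform placement. Of the 21 genes, 13 held none there; how many would under uniform placement was not computed. All 8 intervals between the starts lay in genes with a single interval. None lay there in AOPEP, ARHGEF28, MKLN1 and SPTBN1, with 2 intervals each, MACF1, NEDD4L and PTPRM, with 3 each, or DST, with 4. Genes with more than 1 interval thus shared the empty first piece of NAV2. An upstream piece with fewer intervals than its length gives was therefore not limited to NAV2 in this list.

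NAV2 held more intervals than genes of like length. Among 490 other protein-coding genes of 0.5 to 2 times its span, NAV3 and NAV1 left out, 38 held an interval (7.76%), and none held more than 4. Those 490 genes, with a median of 0, held 0.0183 intervals per 100 kb of pooled span, whereas NAV2 held 1.16 and NAV3 0.312. Any gene of this span with 1 interval exceeds that pooled value, so it sets apart no gene chosen for its intervals. In the 5 of these genes with 3 or more intervals the value ran from 0.357 to 0.963, below NAV2 but above NAV3. Over all 20046 protein-coding genes, 5.27% held an interval, 0.928% held at least 2, and NAV2 alone held 9 (0.00499%). Next came HNRNPH1, an hnRNP protein gene, with 8 and LAMA5, a laminin chain gene, with 6. Per length NAV2 did not stand out among the 1057 genes with an interval, since their median was 2.17 per 100 kb and 759 of them exceeded NAV2. Their median span was 50.9 kb, in which a single interval gives a high value.

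**Figure D3:**
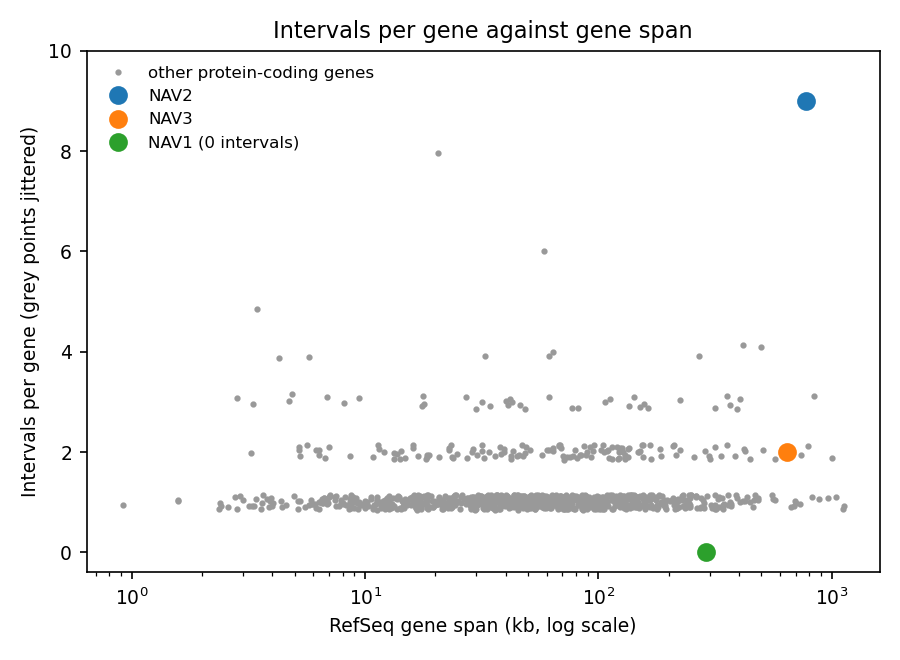
Number of intervals per gene (vertical axis, grey points jittered) against RefSeq gene span in kb on a log scale (horizontal axis), for the protein-coding genes with an interval and for NAV1. NAV2 lies at 776 kb with 9 intervals, above every other gene, NAV3 at 641 kb with 2, and NAV1 at 288 kb with 0.

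The genes nearest to NAV2 in span with at least 2 intervals were RYR2, a calcium release channel gene, LPP, a gene of a focal adhesion protein, and PTPRM, a receptor tyrosine phosphatase gene. RYR2 spans 792 kb and held 2 intervals of up to 8 tags, both at 70.8% to 70.9% of its span. LPP held 2 of up to 6 tags, at 17.6% and 99.8%. PTPRM held 3 of up to 10 tags between 80.5% and 96.6%. Among genes of like span with 3 or more intervals, MACF1 held its 3 between 89.5% and 94.8%, and DST, another cytolinker, its 4 between 57.8% and 71.8%. ASAP1, an Arf GTPase-activating protein gene, held 3 between 67.1% and 85.5%, while the 4 of DIP2C ran from 7.53% to 98.1%. All intervals of RYR2, PTPRM, MACF1, DST and ASAP1 thus lay on the 3′ side of the middle, as did 1 of 2 in LPP and 2 of 4 in DIP2C. A gathering close to the 3′ end, as in NAV2, was also seen in MACF1 and PTPRM, in smaller number.

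As a measure of likeness, the share of the span between the first and the last midpoint was compared over the 11 other protein-coding genes with 4 or more intervals. It was 49.8% in NAV2 and nearest to it in POLE, the catalytic subunit of DNA polymerase epsilon (49.6%), RPL10, a ribosomal protein (50.7%), and ACTB, cytoplasmic actin (56.3%). Their tallest intervals, of 12, 13 and 14 tags, were also near the 13 tags of NAV2, in heights not matched for expected height. ACTB had 4 of its 5 intervals on the 3′ side of the middle, POLE and RPL10 1 of 4 each. POLE spans 63.6 kb, RPL10 4.275 kb and ACTB 3.454 kb, against 776 kb in NAV2, so the likeness is one of shares and not of lengths. The intervals of POLE had their median at 26.4% of the span, those of RPL10 at 39.2% and those of ACTB at 58.5%, against 92.1% in NAV2.

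In NAV3, which spans 641149 nt (chr12:77571862-78213010, plus strand), both intervals lay on the 3′ side of the middle. The first, chr12:77940280-77940321, had 6 tags and stood at 57.5% of the span, between the listed starts. The second, chr12:78079532-78079575, had 7 tags and stood at 79.2%, beyond the second listed start. The midpoints were 139 kb apart. Unlike in NAV2, no listed start coincided with the beginning of the RefSeq span, since the first lay 259 kb into it.

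NAV1 (chr1:201539127-201826969, 287843 nt) held no interval, neither under its own gene number nor on either strand within its span. Of 1921 other protein-coding genes of 0.5 to 2 times its span, 8.9% held an interval, so a count of 0 was the usual one. The list holds called peaks only, and a gene without an interval may still have had tags. The nearest gene downstream, IPO9, a nuclear import receptor gene, held 1 interval of 9 tags at chr1:201875105-201875148.

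Heights in the navigator genes ran from 5 to 13 tags. Other protein-coding genes had 1295 intervals with a median of 7 tags and quartiles of 6 and 10, and 2 of the 11 navigator intervals, of 11 and 13 tags in NAV2, lay above the upper quartile. Since the lowest listed height rose with a second deposited number, read here as the height expected for the gene, members were set beside intervals with the same expected height. That number was 0.02 in NAV2 and 0.01 in NAV3, given to 2 decimals. At 0.02, 156 other protein-coding intervals had a lowest height of 5 tags, a median of 6 and quartiles of 5 and 7.25. The second and the third NAV2 interval, at 5 tags, thus stood at the lowest listed height. The tallest exceeded 142 of the 156, and the last interval of the gene, at 11 tags, 136. At 0.01, the lowest listed height was 4 tags and the median 5, and the NAV3 intervals exceeded 112 and 155 of 209.

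**Figure D4:**
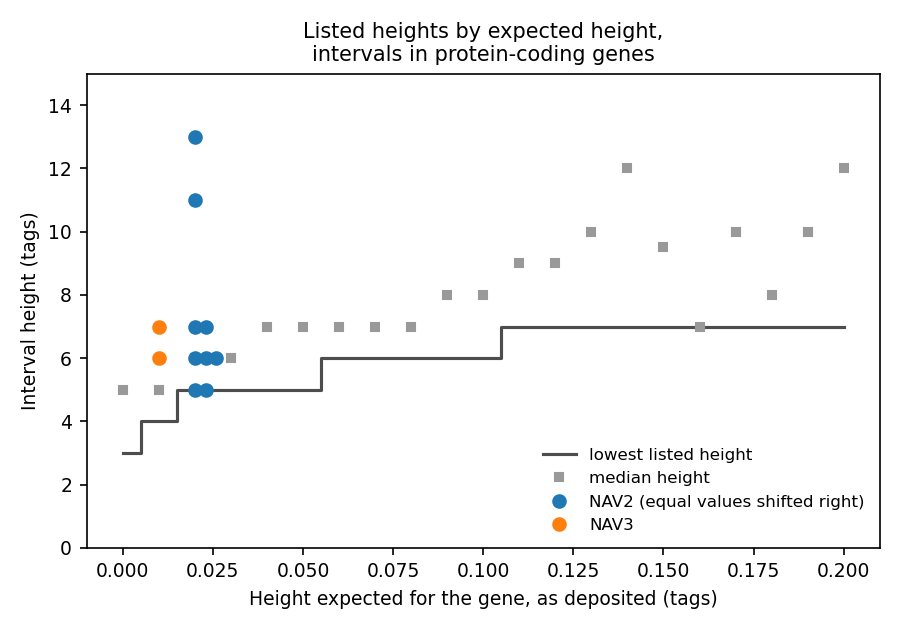
Interval height in tags (vertical axis) against the deposited height expected for the gene in tags (horizontal axis, shown up to 0.2), for intervals in protein-coding genes; the stepped line is the lowest listed height, grey squares are medians, and coloured points are the NAV2 and NAV3 intervals. The lowest listed height rises from 3 tags at an expected height of 0 to 7 tags at 0.2, and the 2 lowest NAV2 intervals lie on this line.

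The deposited p-values followed these heights. In NAV2 they were 0.016 at 5 tags, 5.57e-05 at 6 tags, 1.61e-07 at 7 tags, and 1e-100, the lowest value in the list, at 11 and 13 tags. In NAV3 they were 2.23e-06 at 6 tags and 1e-100 at 7. The value 1e-100 was shared by 269 of all 1406 intervals (19.1%), so it is read here as a floor and not as a measured probability. The same height thus carried a lower p-value in NAV3, where the expected height was lower. Widths in NAV2 ran from 41 to 78 nt with a median of 43, equal to the median of all intervals, and 5 of the 9 were exactly 43 nt wide. The deposited list is labelled halfPH, read here as edges set part way down each peak. On this reading the widths are not those of whole peaks.

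None of the genes nested in or overlapping a navigator gene held an interval: 0 of 11 at NAV2, 0 of 7 at NAV1 and 0 of 1 at NAV3. Over all 39666 RefSeq genes other than protein-coding ones, 0.502% held the midpoint of an interval, so a count of 0 was the usual one. At NAV2 these include the microRNA genes MIR4486 and MIR4694, the 5S rRNA pseudogene RNA5SP335, a snoRNA gene (LOC124900310) and the antisense genes NAV2-AS2 to NAV2-AS5. LEISA1, a long noncoding RNA gene at 19710934 to 19714672, covers the second start of NAV2 and ended 11.6 kb before the first interval. LOC124902644, also of a long noncoding RNA, covers the third start (20008848 to 20024484). The nearest of these genes to an interval was LOC107984418, a long noncoding RNA gene, at 4.58 kb. Among the next protein-coding genes, E2F8, of an E2F family transcription factor, held 1 interval of 8 tags on the minus strand (chr11:19237578-19237628), and DBX1, E2F7 and SYT1 held 0.

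Other genes of the microtubule cytoskeleton were counted for context, in lists chosen with earlier results of these data known. Of 26 genes of plus-end tracking proteins and their partners, 6 held an interval (23.1%, exact 95% interval 8.97 to 43.6). The share over all protein-coding genes was 5.27%, and over the 1921 genes of 144 to 576 kb set beside NAV1 it was 8.9%. Among intervals above the median height of 7 tags the count in the list was 3 of 26, against 2.42% of all protein-coding genes. MACF1, which links microtubules to actin, held 3 intervals of up to 36 tags, and DST, of the same plakin family, 4 of up to 9. TRIO, a guanine nucleotide exchange factor that binds NAV1, held 3 of up to 8 tags in a span of 367 kb. KIF2C, a microtubule depolymerase, held 1 of 7 tags. The genes of the plus-end binding proteins MAPRE1, MAPRE2 and MAPRE3 and of CLIP1, CLIP2, CLASP1 and CLASP2 held none. Of 35 genes of tubulins, motors and other microtubule-associated proteins, which share MAPRE1 with the first list, 8 held an interval (22.9%, exact 95% interval 10.4 to 40.1). The tallest were in DYNC1H1, the cytoplasmic dynein heavy chain (21 tags), PRC1, a spindle midzone bundler (19), MAP1B (14) and TPX2, a spindle assembly factor (10, as in the tubulin gene TUBB4B). The median number of intervals was 0 in both lists and over all protein-coding genes. Their median spans were 145 and 43.3 kb, against 24.1 kb over all protein-coding genes, and transcript levels were not known, so the part of length and abundance in these counts was not tested.

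Markers of the cell type were read as counts of genes with an interval, which are not levels. Of 8 markers of the MDA-231 line, AXL, a receptor tyrosine kinase, held 3 intervals of up to 31 tags and VIM, vimentin, 1 of 18, and the other 6 held none (2 of 8 genes, exact 95% interval 3.19 to 65.1%). Of 5 luminal breast markers, CDH1, E-cadherin, held 1 interval of 3 tags (1 of 5, exact 95% interval 0.505 to 71.6%). Of 6 neuron markers, 0 held any (exact 95% interval 0 to 45.9%). With 5.27% of all protein-coding genes holding an interval, lists this short do not tell these cell types apart. SF3B1 itself held 1 interval of 9 tags.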

How the data were processed

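Both libraries were HITS-CLIP libraries of MDA-231-LM2 cells. The tools were cutadapt 2.3 and BWA 0.7.17, with the hg38 build, per the submitters' processing notes; which program called peaks, and with which threshold and annotation, is not given in the sources used here. In this series the authors deposited 1 list of significant peaks called on pooled unique tags; its signal is the peak height in tags, with no normalization, and was used only to describe intervals within the list. Other measurements, the gene number, expected height and p-value, were read from the deposited text field. Depth per library is unknown.

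Rows with the same position and strand were counted once (1406 of 1587). Gene spans, starts and promoters came from RefSeq GRCh38.p14, the same primary coordinates as hg38. Of 20052 RefSeq protein-coding genes, those on the assembled chromosomes were used. Shares have exact Clopper-Pearson 95% intervals, and no test across genes was run. The assignment was tested on simulated data, where the planted number of intervals was recovered in 200 of 200 genes. No genome sequence or exon annotation was used, so interval sequences, exon classes and NAV proteins were not analysed here.

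The members and lists were chosen with earlier results of these data known. Named genes were the navigator genes with every interval, genes with at least as many intervals as NAV2, the 3 nearest in span, the 3 nearest in extent among genes with 4 or more intervals, genes inside or next to a navigator gene, up to 4 list members with the tallest intervals, and SF3B1; any other gene was named after its values were seen. Alternatives were a higher height or p-value threshold, merging within 50 nt, any overlap, any listed gene, and a shorter NAV2 span. Computations ran in Python 3.11.15 with scipy 1.17.1, pandas 2.3.3 and numpy 2.4.6, and plots in matplotlib 3.10.9.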

Additional observations from a re-analysis of the deposited data

How the results depend on the processing

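Only a height threshold changed the counts by more than 1.5 times. Among intervals above the median height of 7 tags, NAV2 held 2 intervals in place of 9, those of 13 and 11 tags, NAV3 held 0 in place of 2, and 3 of 26 plus-end genes in place of 6 held one, while the count of the microtubule-associated protein list stayed at 8 of 35; over all protein-coding genes the share fell from 5.27% to 2.42%. In this setting the 2 remaining NAV2 intervals both lay on the 3′ side of the middle of the span (100%). This threshold leaves fewer intervals by construction. With deposited p-values of at most 0.01, NAV2 kept 7 intervals, 6 of them (85.7%) on the 3′ side, and with the span counted from its second start, an alternative chosen after seeing the data, 7 of 9 (77.8%) lay on the 3′ side. Merging within 50 nt, any overlap of 1 nt, and counting intervals whatever gene or strand is listed left the counts at 9, 2 and 0 for NAV2, NAV3 and NAV1. No paired analysis was possible because the list pools both replicates and there is 1 group, and for the same reason no replicate could be left out. Heights of 5 to 13 tags in pooled libraries limit every statement on single intervals, and tags below the listing threshold were not seen.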
